A study of Homo sapiens with 6 samples.

Results

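The genes described here encode factors that build ribosomes in the nucleolus, most of them known as target genes of the transcription factor MYC. A list of 35 such genes was taken. Each was followed through its brightest probe, by the mean over 6 Illumina bead arrays, among the probes detected (detection p under 0.05) on 2 arrays or more. That left 30 of the 35 among 13022 genes measured in all. The 1 named probe of NPM1 was detected on 0 arrays and the 3 of TCOF1 on 1 array each, and DDX18, GNL3 and WDR43 had no probe named for them in the annotation used here.

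The arrays come from 2 human breast cancer cell lines with a short hairpin RNA against SETDB1, a histone methyltransferase, or a control. MDA-MB-231, a mesenchymal-like line without hormone receptors, has 2 arrays labelled shRNA-1 and 2 labelled shCtrl. MDA-MB-453, a luminal-like line, has 1 array labelled shRNA-3 and 1 labelled shCtrl. Hairpin and line therefore changed together. All 6 arrays carry the same batch label, and the time after knockdown is not given in the sources used here.

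Ribosome assembly starts when RNA polymerase I transcribes the ribosomal RNA precursor in the nucleolus. Small nucleolar ribonucleoproteins (snoRNPs) guide its chemical modification, the small-subunit processome and the large-subunit assembly factors fold and cut it, and the finished subunits leave for the cytoplasm. MYC is known to activate genes at each of these steps, through binding sites that include the E-box, and proliferating tumour cells depend on the pathway.

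Depth, labels and cell line markers bear on every comparison. Between 19230 and 21238 of 48107 probes were detected per array. SETDB1 stood at 7.29 and 7.21 on the shRNA-1 arrays, against 7.40 and 7.42 on the shCtrl arrays of MDA-MB-231 (difference -0.16, SE 0.16, limma adjusted p = 0.493), and at 8.73 against 8.98 in MDA-MB-453. The lower level on its 1 named probe did not pass the test, so the arrays are called by their labels throughout. Of 10 markers listed for MDA-MB-231, VIM, AXL, CAV1 and CD44 were at 12.27 or above on its 4 arrays, and AXL, CAV1 and CD44 were not detected on either MDA-MB-453 array. PIP, RAB25 and TFAP2B, from a list for MDA-MB-453, were detected on the 2 MDA-MB-453 arrays and on no other. KRT18, KRT19 and ERBB2 from that list were detected on all 6 arrays. KRT18 went the other way, at 7.53 to 7.83 on the MDA-MB-231 arrays and at 6.64 and 6.93 on the shRNA-3 and shCtrl arrays of MDA-MB-453.

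Other line markers differed strongly between the MDA-MB-231 arms. Of the 10 MDA-MB-231 markers, 4 were higher on the shRNA-1 arrays (S100A4 by 8.67, IL6 by 3.58, EPHA2 by 1.66 and MMP14 by 1.36), 2 were lower (ZEB1 by -1.24, SNAI2 by -0.76) and 4 were not called. Of 11 measured MDA-MB-453 markers, 3 were higher (SPDEF by 4.92, AGR2 by 4.72, KRT19 by 4.48), 1 was lower (FOXA1 by -3.78) and 7 were not called. S100A4 was at 14.49 and 14.37 on the shRNA-1 arrays, against 6.11 and 5.40 on the shCtrl arrays. The summed level of the MDA-MB-231 list was 108.2 to 109.3 on the shRNA-1 arrays, 95.46 to 95.76 on their shCtrl arrays, and 48.29 and 48 on the shRNA-3 and shCtrl arrays of MDA-MB-453. For the MDA-MB-453 list it was 73.68 to 74.41, 62.82 to 63.03, and 118.2 and 116.8 on the same arrays. These are sums of log2 levels, which a few genes can dominate. S100A4 and IL6 made up most of the gap between the MDA-MB-231 arms in the MDA-MB-231 list. The 2 MDA-MB-231 arms thus differ in more than the hairpin's labelled target, every MDA-MB-231 result below moves with these markers, and their part in it was not tested. Values are normalised log2 intensities, differences are hairpin minus control, and levels of different genes are not compared because probes differ in brightness.

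Windows around the gene start are shown for 5 members because the E-box, CACGTG, is the site by which MYC is best known to bind such genes. RefSeq's promoter table (GRCh38.p14) matched 28 of the 35 members. BOP1, RRS1, NOLC1, NOP58, RRP12, DDX18 and TCOF1 were not matched. Of the 28 windows, which run from 250 bases before to 50 bases after the gene start, 10 hold CACGTG (35.7%). The motif reads the same on both strands and was searched as these 6 letters alone. The shares were 10.0% of the 10357 windows of tested genes, 26.0% of 123 windows of other ribosome biogenesis genes, and 7.3% of all 35116 windows. Of the 11 motifs in the members' windows, 10 began within 50 bases of the start (90.9%), against 69.4% of the 36 motifs in the windows of other ribosome biogenesis genes and 37.9% of the 1176 in those of tested genes. The stretches below reach 30 bases past the start, in gene direction, with the E-box in capitals. RRP9 and MRTO4 were lower in MDA-MB-231, FBL and EXOSC5 were not called, and NIP7, with one of the largest falls, has no E-box in its window.
RRP9 (chr3:51941875-51942154, minus strand): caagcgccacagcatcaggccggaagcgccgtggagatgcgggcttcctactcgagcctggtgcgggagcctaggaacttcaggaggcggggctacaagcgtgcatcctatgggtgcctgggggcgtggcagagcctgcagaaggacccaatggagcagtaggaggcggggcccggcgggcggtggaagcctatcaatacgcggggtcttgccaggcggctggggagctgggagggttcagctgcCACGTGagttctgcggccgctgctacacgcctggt
MRTO4 (chr1:19251555-19251834, plus strand): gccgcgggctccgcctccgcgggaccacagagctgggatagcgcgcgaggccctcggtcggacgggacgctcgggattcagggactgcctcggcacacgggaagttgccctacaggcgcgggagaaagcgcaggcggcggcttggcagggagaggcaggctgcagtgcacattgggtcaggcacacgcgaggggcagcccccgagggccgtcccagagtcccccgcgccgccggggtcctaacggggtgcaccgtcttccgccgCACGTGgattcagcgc
FBL (chr19:39846350-39846629, minus strand): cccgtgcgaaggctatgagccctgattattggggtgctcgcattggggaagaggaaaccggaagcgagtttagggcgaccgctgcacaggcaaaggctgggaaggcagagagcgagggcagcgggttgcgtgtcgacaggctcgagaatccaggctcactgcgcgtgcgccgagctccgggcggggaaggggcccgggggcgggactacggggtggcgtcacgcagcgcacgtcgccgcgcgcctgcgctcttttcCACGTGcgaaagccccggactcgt
EXOSC5 (chr19:41397330-41397609, minus strand): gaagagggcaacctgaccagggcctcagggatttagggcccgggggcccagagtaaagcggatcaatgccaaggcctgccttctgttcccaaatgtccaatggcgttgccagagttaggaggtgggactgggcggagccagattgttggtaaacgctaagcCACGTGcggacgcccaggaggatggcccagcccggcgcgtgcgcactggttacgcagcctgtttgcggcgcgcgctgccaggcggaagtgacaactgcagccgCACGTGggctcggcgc
NIP7 (chr16:69339522-69339801, plus strand): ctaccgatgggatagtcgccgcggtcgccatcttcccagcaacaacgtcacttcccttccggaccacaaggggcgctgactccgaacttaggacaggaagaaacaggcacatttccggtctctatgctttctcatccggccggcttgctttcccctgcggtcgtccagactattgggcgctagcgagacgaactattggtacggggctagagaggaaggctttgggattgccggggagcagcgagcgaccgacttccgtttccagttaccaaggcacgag

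The motif began 5 bases before the start in RRP9 (position -5), at position 15 in MRTO4, at 7 in FBL and at -89 and 15 in EXOSC5, counted from 1 at the first base of the gene. It was present in 6 of the 19 matched members that were lower in MDA-MB-231 (31.6%), and in 3 of the 6 matched members that were measured and not called (FBL, UTP20 and EXOSC5). A match of these letters is not a measured binding site.

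In MDA-MB-231 the comparison asks how the assembly factors differ between cells labelled shRNA-1 and shCtrl. Of the 30 measured members, 24 fell and 0 rose (limma, Benjamini-Hochberg adjusted p below 0.05 over all genes). Over all genes 19.7% were called lower and 19.5% higher. The median difference over the members was -0.81, against -0.01 over all genes. For 25 members both shRNA-1 arrays lay below both shCtrl arrays and for 2 above both, patterns found in 34.8% and 34.1% of all genes. A further 3 overlapped, and 11 members fell by 2-fold or more, against 7.7% of all genes. Averaged over the members, the level was 8.57 and 8.48 on the shRNA-1 arrays and 9.39 and 9.34 on the shCtrl arrays. In total RNA from a culture, less RNA in each cell and fewer cells of a kind cannot be told apart, and after normalisation a fall is relative to the other genes on the array.

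**Figure D1:**
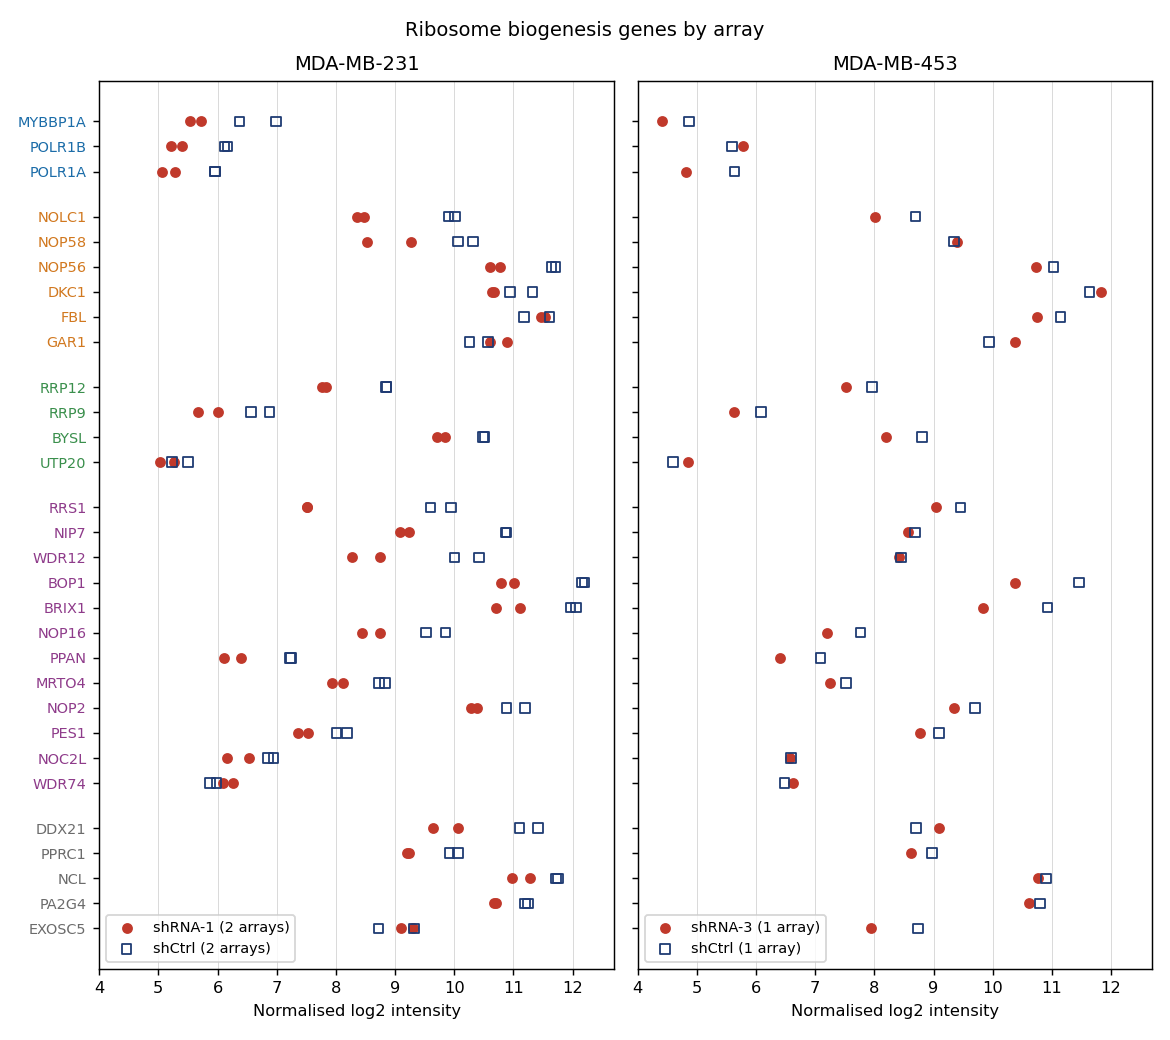
Normalised log2 intensity of the 30 measured members (rows, coloured by assembly step) on each array, for MDA-MB-231 (left) and MDA-MB-453 (right). Filled circles are arrays labelled with a SETDB1 hairpin and open squares are control arrays. In MDA-MB-231 the circles of 25 genes lie left of both squares, and in MDA-MB-453 the circle lies left of the square for 23 of 30 genes.

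RNA polymerase I and its regulators were lower by similar amounts. All 3 measured members fell. MYBBP1A, a nucleolar protein that binds MYB and takes part in ribosomal RNA synthesis, was at 5.53 and 5.73 on the shRNA-1 arrays, against 6.99 and 6.37 on the shCtrl arrays, and fell by 1.05 (SE 0.23, adjusted p = 0.00652). It was detected on 4 of the 6 arrays. POLR1B, the second-largest catalytic subunit, was at 5.22 and 5.40 on the shRNA-1 arrays, against 6.17 and 6.12 on the shCtrl arrays (difference -0.83, SE 0.17, adjusted p = 0.00498). POLR1A, the largest subunit, was at 5.27 and 5.06 against 5.95 and 5.96 (difference -0.79, SE 0.17, adjusted p = 0.00681). For all 3 genes both shRNA-1 arrays lay below both shCtrl arrays, as they did for 34.8% of all genes. These are dim probes, with means over all arrays of 5.45 to 5.71.

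Of the 6 snoRNP proteins 3 fell. NOLC1, a chaperone that binds both classes of snoRNP, was at 8.36 and 8.48 on the shRNA-1 arrays, against 9.91 and 10.01 on the shCtrl arrays, and fell by 1.54 (SE 0.17, adjusted p = 0.000216). NOP58, a core protein of the box C/D class that guides ribose methylation, was at 9.28 and 8.52 against 10.06 and 10.32 (difference -1.29, SE 0.25, adjusted p = 0.00418). NOP56, its partner in the same particle, was at 10.78 and 10.60 against 11.64 and 11.71 (difference -0.99, SE 0.17, adjusted p = 0.0022). The shRNA-1 arrays of NOP58 lay 0.76 apart, the widest gap between replicates among the members. FBL, the methyltransferase of that particle, was at 11.47 and 11.53 on the shRNA-1 arrays, between the 11.61 and 11.18 of the shCtrl arrays, and was not called (difference 0.11, 95% confidence interval -0.34 to 0.55, adjusted p = 0.71). Both proteins of the box H/ACA class, which guides pseudouridine formation, were also not called. DKC1, its pseudouridine synthase, had both shRNA-1 arrays below both shCtrl arrays (difference -0.47, adjusted p = 0.0771). It was called lower under 5 alternatives, among them no background correction (adjusted p = 0.0409) and median scaling (0.0301), with adjusted p of 0.00675 to 0.428 over all alternatives. GAR1, a small partner of DKC1, had both shRNA-1 arrays above both shCtrl arrays (difference 0.34, 95% confidence interval -0.10 to 0.78, adjusted p = 0.207). All 3 further GAR1 probes gave positive values in MDA-MB-231.

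Among the small-subunit factors 3 of 4 measured members fell. RRP12, which helps export both subunits, was at 7.77 and 7.83 on the shRNA-1 arrays, against 8.85 and 8.85 on the shCtrl arrays, and fell by 1.05 (SE 0.16, adjusted p = 0.00138). RRP9, a protein of a box C/D particle that acts in the small-subunit processome, was at 6.01 and 5.67 against 6.88 and 6.56 (difference -0.88, SE 0.20, adjusted p = 0.00835). BYSL, a late factor of pre-small-subunit maturation, was at 9.71 and 9.84 against 10.48 and 10.52 (difference -0.73, SE 0.17, adjusted p = 0.00878). In these 3, as in 34.8% of all genes, both shRNA-1 arrays lay below both shCtrl arrays. UTP20, a large scaffold of the processome, overlapped between the arms and was not called (difference -0.22, adjusted p = 0.388).

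Among the members, the large-subunit factors held the largest falls, with 11 of 12 measured lower and a median difference of -1.04. This order of steps did not hold in the wider lists given below. There the median was -0.60 for small-subunit factors and -0.54 for large-subunit factors. RRS1, which brings the 5S ribonucleoprotein into the large subunit in yeast, was at 7.52 and 7.50 on the shRNA-1 arrays, against 9.94 and 9.60 on the shCtrl arrays, and fell by 2.26 (SE 0.18, 4.80-fold, adjusted p = 4.2e-05). NIP7, a late processing factor, was at 9.09 and 9.23 against 10.87 and 10.88 (difference -1.71, SE 0.17, adjusted p = 0.000116). WDR12 forms the PeBoW complex with PES1 and BOP1. It was at 8.74 and 8.27 on the shRNA-1 arrays, against 10.00 and 10.42 on the shCtrl arrays, and fell by 1.71 (SE 0.22, adjusted p = 0.000557). BOP1 was at 11.01 and 10.79 against 12.20 and 12.16 (difference -1.28, SE 0.17, adjusted p = 0.000631). PES1 was at 7.36 and 7.53 against 8.01 and 8.18 (difference -0.65, adjusted p = 0.017). All 3 PeBoW genes fell, with both shRNA-1 arrays below both shCtrl arrays, a pattern found in 34.8% of all genes. PES1 was no longer called without shCtrl replicate 1 (adjusted p = 0.0576), shCtrl replicate 2 (0.13) or shRNA-1 replicate 1 (0.0501).

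The other large-subunit members followed the same direction except for WDR74. BRIX1 and NOP16 fell by 1.11 and 1.10, PPAN by 0.98, MRTO4, a homolog of ribosomal protein P0, by 0.75, the RNA methyltransferase NOP2 by 0.71 and NOC2L, which also binds p53, by 0.55. PPAN lies beside P2RY11 and can be read through into it, so its probe may not tell these transcripts apart. WDR74, a late factor, had both shRNA-1 arrays above both shCtrl arrays and was not called (6.09 and 6.26 against 5.99 and 5.87, difference 0.25, 95% confidence interval -0.14 to 0.64, adjusted p = 0.281).

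Of the remaining members, which act at several steps or outside them, 4 of 5 fell. DDX21, an RNA helicase of ribosomal RNA transcription and processing, was at 10.07 and 9.64 on the shRNA-1 arrays, against 11.10 and 11.42 on the shCtrl arrays, and fell by 1.40 (SE 0.21, adjusted p = 0.00108). PPRC1, a growth-induced transcriptional coactivator, was at 9.20 and 9.24 against 10.07 and 9.92 (difference -0.77, SE 0.17, adjusted p = 0.00669). NCL, or nucleolin, an abundant RNA-binding protein, was at 11.29 and 10.98 against 11.72 and 11.75 (difference -0.60, SE 0.18, adjusted p = 0.0272), and its second probe gave -1.01. PA2G4, a growth regulator found in pre-ribosomes, fell by 0.54. EXOSC5, a subunit of the RNA exosome that trims ribosomal RNA, overlapped between the arms (9.31 and 9.10 against 9.33 and 8.72) and was not called (difference 0.18, adjusted p = 0.578).

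**Figure D2:**
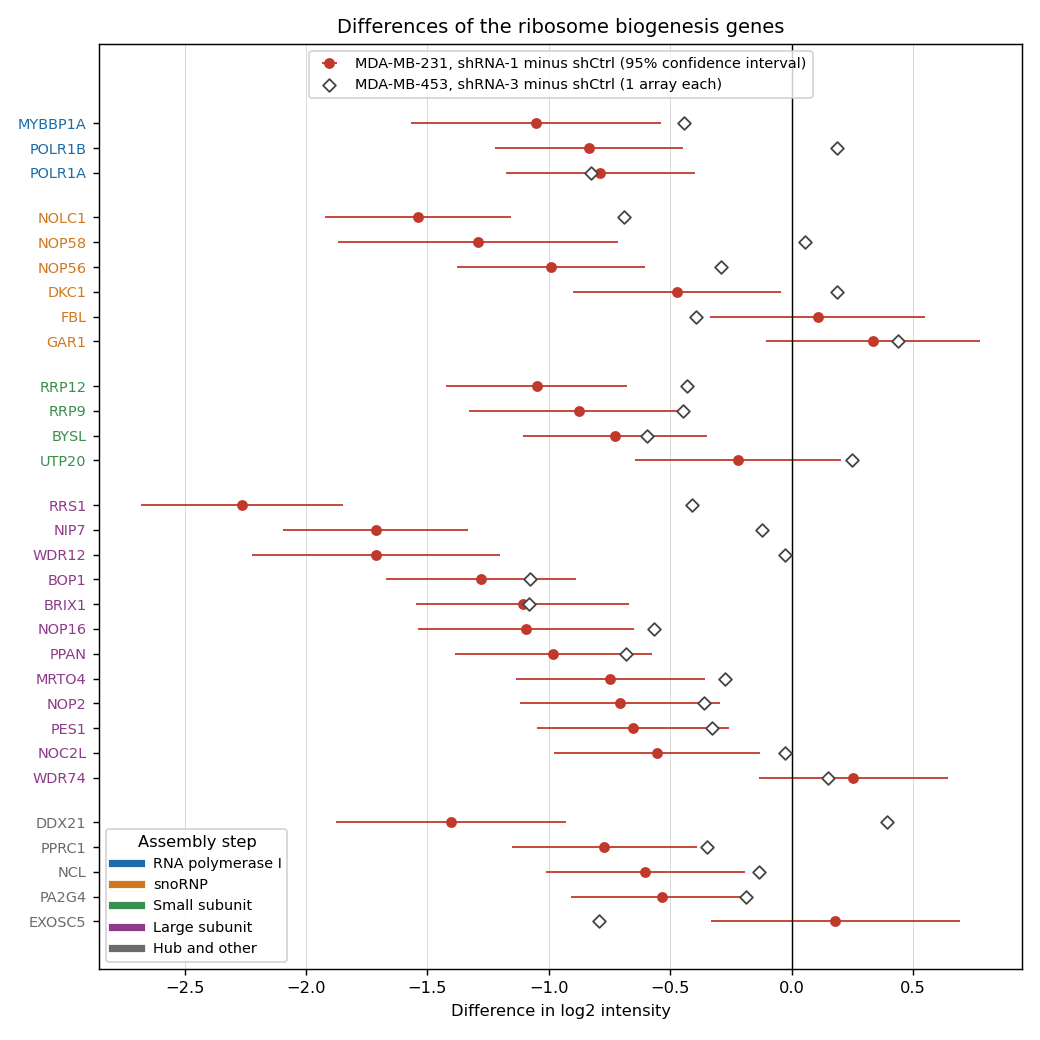
Difference in log2 intensity, hairpin minus control, for the 30 measured members ordered by assembly step. Filled circles with bars are MDA-MB-231 (limma estimate and 95% confidence interval) and open diamonds are MDA-MB-453, with 1 array in each arm and no error. The intervals of 25 members lie below 0 in MDA-MB-231, among them DKC1, which does not pass after adjustment, and RRS1, NIP7, WDR12 and DDX21 stand furthest from their diamonds.

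Further probes of the same genes were compared. In 8 members with over 1 detected probe, all 12 further probes gave the same sign as the probe used in MDA-MB-231. In MDA-MB-453 8 of the 12 did, and NCL's second probe was at 0.26, against -0.13 for the probe used. The 4 arrays limit the precision. Without shCtrl replicate 1 the number of members called lower was 15, and without shCtrl replicate 2 it was 16, while 12.3% and 10.5% of all genes were called lower in those fits. Without shRNA-1 replicate 1 it was 21, and without shRNA-1 replicate 2 it was 23, against 18.3% and 20.2% of all genes.

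The wider pathway held more genes that fell than rose. A list of 140 other ribosome biogenesis genes was drawn by assembly step from textbook knowledge, with earlier results of these data known. Of the 140 genes, 135 were measured. Of these 62 fell (45.9%) and 4 rose (2.96%), against 19.7% and 19.5% of all genes. These shares of all genes are also the background for the counts by step that follow. For the fits with a shCtrl replicate left out, given last, the lower shares of all genes in the paragraph above apply instead. The median difference was -0.54, against -0.01 over all genes. PNO1, which joins the pre-small subunit before its last cleavage, had the largest fall (6.86 and 7.03 on the shRNA-1 arrays, against 9.57 and 9.79 on the shCtrl arrays, difference -2.73, SE 0.18, adjusted p = 1.13e-05). Among 50 small-subunit factors 26 fell, including RRP7A (-1.68) and UTP4 (-1.48), and the helicase DDX10 rose by 0.69. Among 49 large-subunit factors 22 fell, led by TEX10 (-1.45), NIFK (-1.44) and PAK1IP1 (-1.34), and DDX24, the SUMO protease SENP3 and REXO4 rose by 0.56, 0.60 and 0.64. Of 13 genes of the RNA polymerase I machinery 5 fell, including the polymerase subunits POLR1G (-1.31) and POLR1E (-1.05) and the promoter-selectivity factor TAF1B (-0.96), and 0 rose. Of 11 further snoRNP proteins and assembly factors 4 fell, among them NUFIP1 (-0.96), the helicase RUVBL1 (-0.86) and ZNHIT6 (-0.66), and 0 rose. Of 12 exosome subunits and nucleases 5 fell, including the helicase MTREX (-1.14), EXOSC6 (-1.08) and EXOSC3 (-0.85), and 0 rose. Without shCtrl replicate 1, 40 of the 135 fell and 0 rose, and without shCtrl replicate 2, 33 fell and 0 rose.

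**Figure D3:**
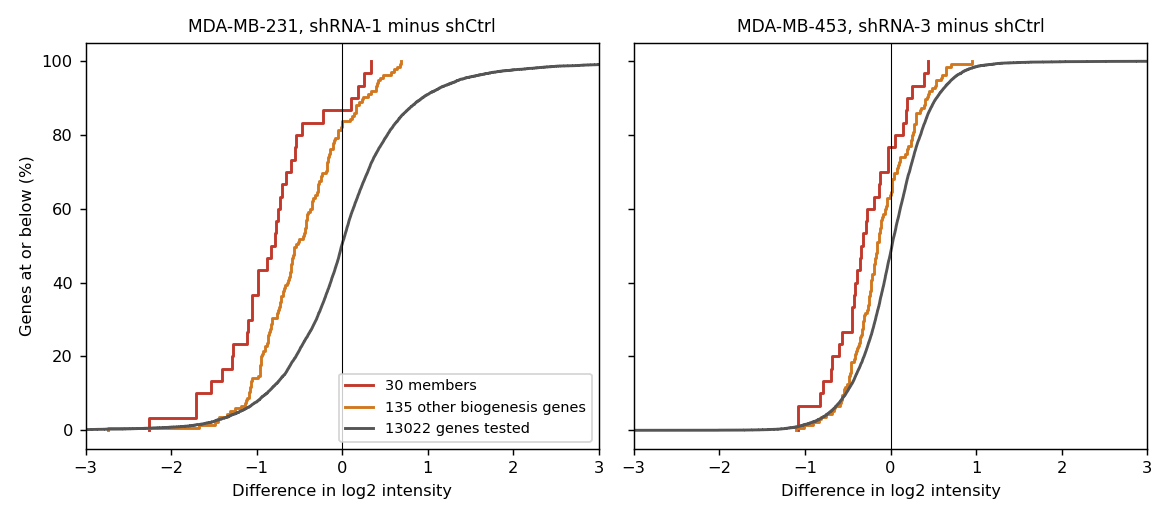
Cumulative share of genes (percent) at or below each log2 difference, for the 30 members, the 135 other ribosome biogenesis genes and all 13022 genes, in MDA-MB-231 (left) and MDA-MB-453 (right). The members' median lies left of that of all genes in both lines, at values of -0.81 against -0.01 in MDA-MB-231 and -0.34 against 0.02 in MDA-MB-453.

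Some falls stand in stretches of chromosome where neighbouring genes were also lower. The median difference of up to 20 tested genes on each side was taken for each member in MDA-MB-231. It was below 0 for 17 of the 24 members that fell and at or above 0 for the other 7. Of all genes called lower, 72.2% had a neighbour median below 0. RRS1 on chromosome 8 had the lowest neighbour median (-0.70), followed by NOP58 (-0.55) and WDR12 (-0.49), both on chromosome 2. NOLC1 and BOP1, with falls of 1.54 and 1.28, had neighbours near 0 (-0.01 and -0.02), and PA2G4 fell by 0.54 among neighbours at 0.37. With the mean shift of the neighbours subtracted on each array, 24 members were again lower and 0 higher, against 20.6% and 17.6% of all genes. NOP58 was not called in that fit and DKC1 was.

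**Figure D4:**
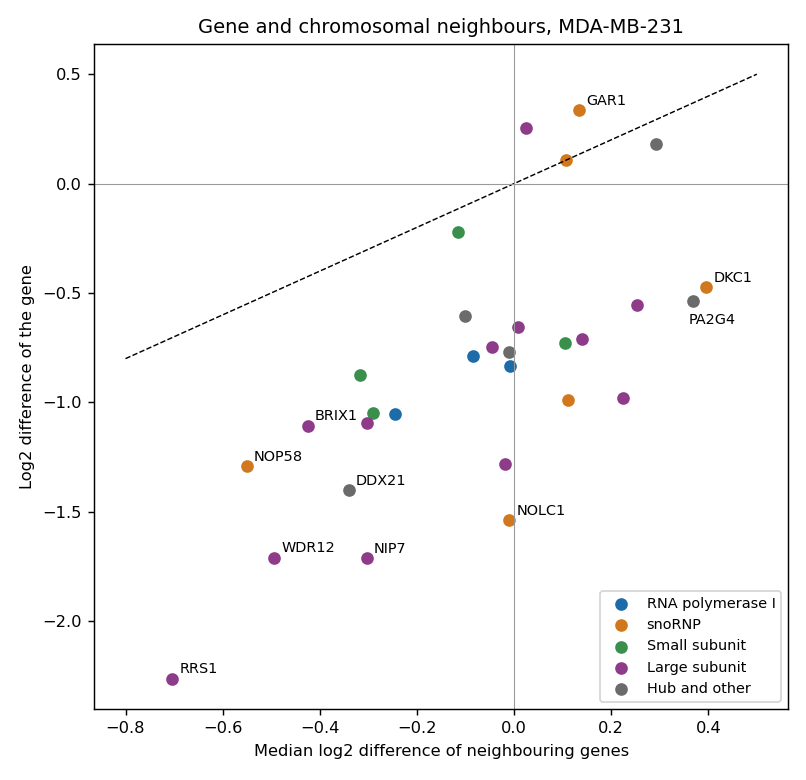
Log2 difference of each measured member (y) against the median log2 difference of its chromosomal neighbours (x) in MDA-MB-231, shRNA-1 minus shCtrl, coloured by assembly step. The dashed line marks equal values. RRS1 is lowest on both axes. Below the line lie 27 of 30 points, among them all 24 members called lower. So do 49.9% of all genes with neighbours and 98.2% of all genes called lower.

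In MDA-MB-453, with 1 array against 1 and no test, 23 of the 30 members were lower on the shRNA-3 array, and 48% of all genes were. The median difference was -0.34, against 0.02 over all genes. Past 1.5-fold, 7 members were lower and 0 higher, against 7.95% and 8.42% of all genes. With no background correction 4 were lower and 0 higher, against 4.82% and 5.18%, since POLR1A, PPAN and BYSL no longer passed. BRIX1 was at 9.84 on the shRNA-3 array and 10.93 on the shCtrl array, and BOP1 at 10.38 and 11.45. Both were lower by just over 2-fold in this line. EXOSC5, NOLC1, PPAN and BYSL had differences of -0.79, -0.69, -0.68 and -0.60. POLR1A was not detected on the shRNA-3 array, so its difference there depends on the background setting (-0.83, against -0.48 with no background correction). GAR1 and DDX21 had the highest differences, 0.44 and 0.39. The direction of the median depends on the scaling. With median scaling in place of quantile normalisation, all genes had a median of 0.26 and the members 0.04, so the members lay 0.22 below all genes, against 0.35 below with quantile normalisation.

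Control levels of the members differed between the lines. The level on the shCtrl arrays was higher in MDA-MB-231 than in MDA-MB-453 for 27 of the 30 members, by a median of 0.75, while 50.02% of all genes were higher. PES1, WDR74 and DKC1 were the exceptions. The mean over the members was 8.26 on the MDA-MB-453 shRNA-3 array and 8.55 on its shCtrl array.

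The effect differed between the lines for 4 members by the test of that difference. MDA-MB-453 has 1 array in each arm, so this test takes its spread from the MDA-MB-231 replicates and assumes that it holds in the other line. The effect was more negative in MDA-MB-231 for RRS1 by -1.85 (SE 0.32, limma adjusted p = 0.0071), for DDX21 by -1.80 (SE 0.36, adjusted p = 0.0146), for WDR12 by -1.68 (SE 0.39, adjusted p = 0.0244) and for NIP7 by -1.59 (SE 0.29, adjusted p = 0.00921). Of all genes 6.27% were called more negative and 7.3% more positive in MDA-MB-231. In MDA-MB-453, RRS1 was at 9.04 on the shRNA-3 array and 9.46 on the shCtrl array, DDX21 at 9.09 and 8.70, WDR12 at 8.42 and 8.45, and NIP7 at 8.56 and 8.69. All but DDX21 were thus lower there too, by 0.41 or less. With the neighbours' shift subtracted, RRS1 and NIP7 kept the call, while DDX21 (adjusted p = 0.0516) and WDR12 (adjusted p = 0.0914) did not. Without shCtrl replicate 2 the same 2 members, RRS1 and NIP7, were called. For BRIX1 and BOP1, the lowest members in MDA-MB-453, the difference between lines was not called, with 95% confidence intervals of -0.78 to 0.74 and -0.88 to 0.48.

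Across both lines, with 3 arrays labelled hairpin and 3 labelled control, 28 of the 30 members had a negative estimate and the median was -0.71. In each arm 2 of the 3 arrays are from MDA-MB-231, so that line weighs more in this estimate. In MDA-MB-453 alone 23 members were below 0. Of all 13022 genes 6382 had a negative estimate across both lines, with a median of 0.01. No member passed the adjusted threshold (limma, 0 lower and 0 higher; over all genes 0% lower and 0.0384% higher), and the smallest adjusted p was 0.0564, shared by BOP1, BRIX1 and NOLC1. At an unadjusted p below 0.05, 21 members were lower and 0 higher, against 14.8% and 15.8% of all genes. Of the 24 members that fell in MDA-MB-231, 21 were also below 0 in MDA-MB-453, against 62.1% of all genes that fell in MDA-MB-231. Over the 30 members, differences in the 2 lines correlated at r = 0.23 (Spearman's rho 0.28), and over all genes at 0.17 (rho 0.20). Genes are not independent replicates, and within a line all of them come from the same arrays.

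MYC itself did not pass the test in MDA-MB-231. It was at 11.48 and 11.62 on the shRNA-1 arrays, against 11.64 and 11.64 on the shCtrl arrays (difference -0.09, 95% confidence interval -0.47 to 0.29, adjusted p = 0.71), and at 9.46 on the shRNA-3 array, against 9.86 on the shCtrl array of MDA-MB-453. Of 5 listed MYC antagonists, which compete for the same partner and sites, MXD3, MXD4 and MNT rose in MDA-MB-231 by 1.72, 1.68 and 0.93. The 5 were chosen after their values were seen, and 19.5% of all genes were called higher in MDA-MB-231. In MDA-MB-453, with 1 array in each arm, MXD3, MXD4 and MNT had differences of -0.31, 0.54 and 0.46. The difference between lines was thus 2.04 for MXD3 and 1.14 for MXD4 (limma adjusted p = 0.0086 and 0.0405). For MNT it was 0.46 and was not called (95% confidence interval -0.22 to 1.14). Of all genes 7.3% were called more positive in MDA-MB-231 by this test. MXD1 (-0.33) and MXI1 (0.29) were not called in MDA-MB-231, nor was the shared partner MAX (-0.31). BMI1, a Polycomb protein named in the study's title, fell by 1.18 in MDA-MB-231 and had a difference of -1.14 in MDA-MB-453. Whether these moves bear on the assembly factors was not tested.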

How the data were processed

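Total RNA of 6 samples was amplified to biotinylated cRNA for Illumina arrays, per the labels' protocols. The authors deposited non-normalized probe intensity values and, per the file headers, a detection p-value for each of 48107 probes. They also deposited log2 values, which equal the quantile-normalized log2 intensities to within 5.26e-09 and have a median of 5.71 in every column, so their scale is known. The scanning software is not given in the sources used here.

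Intensities were background-corrected with limma 3.58.1 in R 4.3.3 (normexp, negative controls inferred from detection p, offset 16), quantile normalized and put on the log2 scale. The platform annotation, possibly outdated, named 30113 probes with 1 symbol, 8 with several and 17986 with none, and 30074 Entrez identifiers were found in RefSeq's gene table for GRCh38.p14, which changed 0 symbols. The brightest of each gene's probes with a detection p below 0.05 on 2 or more arrays was tested (13022 genes).

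A limma fit with 4 group means gave the MDA-MB-231 contrast and its difference from MDA-MB-453. Its spread, from 2 residual degrees of freedom and a prior of 6.52, was taken to hold for the unreplicated MDA-MB-453 groups. An additive fit of line and arm covered both lines. For 1 gene, an exact permutation of 2 against 2 arrays cannot give a p below 0.333, so smaller values rest on spread shared between genes. The labels do not say that replicates were separate cultures, so p-values measure the spread between arrays, which may be technical. All 35 members are named. Values on each array are given, per step, for the brightest member, the 3 with the largest difference in MDA-MB-231 and those whose effect differed between lines. Of each list of other genes, the 3 largest called differences and all rises are named. MXD1, MXD3, MXD4, MXI1, MNT, MAX, BMI1 and the line markers printed were chosen after their values were seen. Members, lists and rules were chosen with earlier results of these data known. The fit was tested on simulated data with few genes changed and the same spread in both lines. The simulation therefore cannot test whether MDA-MB-453 arrays vary like MDA-MB-231 ones. Alternatives covered background, offset, scaling, the authors' values, filters, probes, neighbours, each MDA-MB-231 array left out, limma-trend, a replicate block and the 4 MDA-MB-231 arrays alone.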

Additional observations from a re-analysis of the deposited data

Results flagged for a closer look

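The effect in MDA-MB-231 differed from that in MDA-MB-453 for 4 members by the test of the difference itself. RRS1 had -2.26 in MDA-MB-231 and -0.41 in MDA-MB-453 (difference -1.85). DDX21 had -1.40 and 0.39 (difference -1.80). WDR12 had -1.71 and -0.03 (difference -1.68). NIP7 had -1.71 and -0.12 (difference -1.59). The MDA-MB-453 value of each rests on 1 array against 1, and hairpin and line cannot be told apart.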

How the results depend on the processing

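The number of members lower in MDA-MB-231 was 15 to 23 with 1 of its 4 arrays left out, and 22 to 25 under the other alternatives, with 0 higher in each. Of all genes, 10.5% to 20.2% were called lower with 1 array left out, and 11.5% to 22.6% under the other alternatives. The number of members tested also changed, and among genes detected on all 6 arrays it was 27, all of which kept their call. With the replicate block, which rests on shared numbers alone (same-numbered deviations correlated at 0.0713), 23 members were lower and NOC2L was not called. Of all genes 19% were called lower with the replicate block. The members whose effect differed between lines numbered 3 in that fit (4.68% of all genes more negative). Of the other ribosome biogenesis genes, 33 to 74 were called with 1 array left out. The members whose effect differed between lines numbered 11 with median scaling (16% of all genes more negative), 2 with the neighbours subtracted (5.7%), 6 with no background correction (7.59%) and with the authors' values (7.57%), NOLC1 and NOP58 being added in both, and 2 to 5 with 1 array left out (2.15% to 10.1%), against 4 (6.27%). Median scaling was the one alternative that turned the members' median in MDA-MB-453, to 0.036 where all genes were at 0.26. There, 4 members passed 1.5-fold with no background correction, with an offset of 50 and with the authors' values (4.82%, 4.19% and 4.81% of all genes lower), against 7 (7.95%). Across both lines 3 members were called with no background correction, with the authors' values and with limma-trend (1.3%, 1.29% and 1.18% of all genes lower), 2 with an offset of 50 (0.323%) and 8 among genes detected on all 6 arrays (5.63%), against 0 (0%). Members that changed sign in MDA-MB-231 were FBL (-0.0089 with median scaling, -0.10 with neighbours subtracted, -0.11 to 0.324 with 1 array left out) and EXOSC5 (-0.28 with neighbours subtracted, -0.12 to 0.482 with 1 array left out), neither called in any of these. The causes were not tested. Dim probes such as those of the RNA polymerase I subunits lie near background, which limits their precision.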
